A study of Homo sapiens with 6 samples.

Results

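Mitochondrial ribosomal proteins were followed after knockdown of STIL, a centriole assembly protein, in EJ, an established cell line from human bladder cancer. The members are the genes whose symbol begins with MRPL or MRPS and a digit, and 78 of the 15953 genes in the expression tables met that rule, 49 MRPL genes named for the large subunit and 29 MRPS genes named for the small subunit. The shSTIL group was 3 libraries of EJ cells that stably carried a STIL knockdown lentivirus, and the shNC group was 3 libraries of EJ cells with the negative control lentivirus. The sample titles, genotype labels and methods name short hairpin RNA and stable cells, whereas the design text and the table headings name the groups by siRNA (siNC and siSTIL), and the titles were followed here. By the methods both groups carry a lentiviral vector, and no untransduced EJ cells, second cell line or rescue was part of these libraries. The sources used here do not say whether the 3 libraries of a group came from separate cultures or transductions, so a p-value measures only the spread between these libraries, which may be technical. All values are mRNA levels in bulk RNA, in log2 CPM (log2 of the read count scaled to a fixed library size), and a log2 fold change is the mean of the shSTIL libraries minus the mean of the shNC libraries. A member was called lower or higher at an adjusted p under 0.01 in a limma fit over all genes. In bulk RNA, fewer cells that express a gene and less RNA per cell cannot be told apart.

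The mitochondrial ribosome makes the few proteins that mitochondrial DNA encodes, which are core subunits of the respiratory chain and of ATP synthase. Its rRNAs come from mitochondrial DNA, whereas every one of its proteins is encoded in the nucleus, made in the cytosol and imported. The small subunit holds the mRNA and the decoding centre, and the large subunit holds the peptidyl transferase centre and the exit tunnel, which opens at the inner membrane. Some of its proteins have a counterpart in the bacterial ribosome and the others are particular to mitochondria. The nuclear factors NRF1, GABP and YY1 are known to act at promoters of many of these genes. Symbols do not always give the subunit, because MRPS30 and MRPS18A sit in the large subunit, and MRPS36 is now placed in the 2-oxoglutarate dehydrogenase complex and not in the ribosome.

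Promoter sequences are shown for the called members with the largest fall and the largest rise in each subunit, and for MRPL18 and MRPS12, which face a gene that was called in the same direction. They run from 250 bases before to 50 bases after the first RefSeq start listed (GRCh38.p14), 5′ to 3′ on the strand of the gene. Capitals mark the letters that match CCGGAAG (an ETS word, as GABP binds), GCGCANGCG (an NRF1 word) or AAGATGGCG (a YY1 word) on either strand. The MRPL20 promoter is at chr1:1407244-1407543 (minus strand), that of MRPL33 at chr2:27771469-27771768 (plus strand), that of MRPS21 at chr1:150293611-150293910 (plus strand), that of MRPS35 at chr12:27710582-27710881 (plus strand), that of MRPL18 at chr6:159789562-159789861 (plus strand) and that of MRPS12 at chr19:38930694-38930993 (plus strand).
MRPL20: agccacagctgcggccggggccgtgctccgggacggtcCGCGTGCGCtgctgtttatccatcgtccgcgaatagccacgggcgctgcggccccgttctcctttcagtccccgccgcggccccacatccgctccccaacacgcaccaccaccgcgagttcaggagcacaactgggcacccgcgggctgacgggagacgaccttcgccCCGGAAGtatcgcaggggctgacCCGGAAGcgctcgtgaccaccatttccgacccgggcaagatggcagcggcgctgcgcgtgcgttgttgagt
MRPL33: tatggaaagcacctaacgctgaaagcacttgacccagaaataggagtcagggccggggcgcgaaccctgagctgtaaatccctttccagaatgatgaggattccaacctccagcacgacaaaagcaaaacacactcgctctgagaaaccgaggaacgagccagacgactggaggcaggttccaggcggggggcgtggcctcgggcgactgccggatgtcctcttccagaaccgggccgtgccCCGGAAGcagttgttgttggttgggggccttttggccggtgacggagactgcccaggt
MRPS21: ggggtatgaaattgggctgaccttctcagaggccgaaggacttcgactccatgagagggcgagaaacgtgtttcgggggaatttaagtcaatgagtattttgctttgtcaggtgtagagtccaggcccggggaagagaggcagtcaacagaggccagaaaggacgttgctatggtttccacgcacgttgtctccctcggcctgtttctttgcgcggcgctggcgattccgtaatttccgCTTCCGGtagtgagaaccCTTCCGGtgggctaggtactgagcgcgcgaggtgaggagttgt
MRPS35: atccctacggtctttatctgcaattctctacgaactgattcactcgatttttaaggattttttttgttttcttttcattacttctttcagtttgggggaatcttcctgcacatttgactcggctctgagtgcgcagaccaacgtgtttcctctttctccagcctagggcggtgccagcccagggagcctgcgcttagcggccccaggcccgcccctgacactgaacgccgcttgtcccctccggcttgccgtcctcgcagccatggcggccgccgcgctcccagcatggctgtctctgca
MRPL18: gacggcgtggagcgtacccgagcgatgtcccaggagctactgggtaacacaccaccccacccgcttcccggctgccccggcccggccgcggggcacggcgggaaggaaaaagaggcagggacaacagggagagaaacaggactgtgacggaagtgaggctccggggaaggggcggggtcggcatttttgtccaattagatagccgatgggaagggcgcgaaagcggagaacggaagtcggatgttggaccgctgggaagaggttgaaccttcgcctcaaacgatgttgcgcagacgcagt
MRPS12: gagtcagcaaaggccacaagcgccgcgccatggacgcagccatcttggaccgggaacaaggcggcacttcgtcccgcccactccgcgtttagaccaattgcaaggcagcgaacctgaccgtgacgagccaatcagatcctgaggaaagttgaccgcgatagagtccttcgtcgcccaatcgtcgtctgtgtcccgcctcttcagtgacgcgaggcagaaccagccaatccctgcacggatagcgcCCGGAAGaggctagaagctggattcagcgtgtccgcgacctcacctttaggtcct
The ETS word occurred in the MRPL20, MRPS21 and MRPS12 promoters, whose transcripts fell, and also in that of MRPL33, whose transcript rose. The windows of MRPS35, which rose, and MRPL18, which fell, held none of the 3 words.

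The reads behind the log2 CPM values totalled 16214772 to 16431243 in the shNC libraries and 16734469 to 16901634 in the shSTIL libraries, and the biological coefficient of variation was 3.02%. STIL itself was at a log2 CPM of 5.98, 6.10 and 6.01 in the shNC libraries and 4.05, 4.06 and 4.01 in the shSTIL libraries, so 25.2% of the control level was left. Of the epithelial markers, KRT8, KRT18 and KRT7 were at a mean log2 CPM of 8.21, 9.30 and 6.75, whereas EPCAM at 0.16 and CDH1 at -2.13 were near the floor, as were UPK1A, UPK1B, UPK2 and GATA3 among 5 urothelial markers. PPARG, the other urothelial marker, was at 4.41, and the mesenchymal markers VIM, FN1 and CDH2 were at 10.2, 5.85 and 1.495. Among markers of fibroblasts and endothelium, COL1A1 was at a mean log2 CPM of 1.18, PECAM1 at -1.59 and VWF at -2.62. Several of these markers moved with the knockdown, with log2 fold changes of -0.70 for KRT8, -0.68 for VIM, -1.19 for FN1, -0.96 for COL1A1 and -1.12 for UPK1B, all lower, and of 0.49 for KRT7 and 0.26 for PPARG, both higher. UPK1B rested on only 5 to 20 reads per library, and DESeq2 called none of the 5 urothelial markers, UPK1B and PPARG included. The part of all these markers in the members' values was not tested.

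In STIL-knockdown EJ cells more mitochondrial ribosomal proteins had lower than had higher transcript levels. Quantile normalization (28 lower, 12 higher) and median centring (29 lower, 10 higher) kept this balance. The counts were nearly equal, however, once trends on transcript length and GC content were removed. On the deposited scale 29 of the 78 members were lower, 11 were higher and 38 were not called. Once trends on transcript length and GC content were removed from each library, an alternative chosen after seeing the data, 23 were lower and 22 were higher. The share called was not high for this experiment. Of the members 51.3% were called, against 47.1% of all genes and 64.5% of the 8485 genes in the members' range of level (a mean log2 CPM of 3.35 to 7.43). The lower members were 37.2%, against 23.6% of all genes and 32.2% of genes in that range, and the higher members were 14.1%, against 23.5% and 32.3%. After that correction 33.2% of the genes in that range were lower and 35.4% were higher. The groups did not overlap for 52 members (66.7%), against 60.3% of all genes and 77.2% of genes in the range.

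The changes were small. The median log2 fold change of the members was -0.08, against 0.00 for genes in their range of level, and 51 of the 78 members lay below 0. Their median absolute log2 fold change was 0.20, against 0.28 for genes in the range, and no member changed by more than 1 on the log2 scale. The members ranged from -0.83 for MRPL20 to 0.78 for MRPL33, with standard errors from 0.03 to 0.10. Each member was well covered, with at least 137 reads in every shNC library and at least 177 in every shSTIL library. For each called member p was 0.1 in a two-sided exact permutation test, which is as small as 3 libraries against 3 can give.

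**Figure D1:**
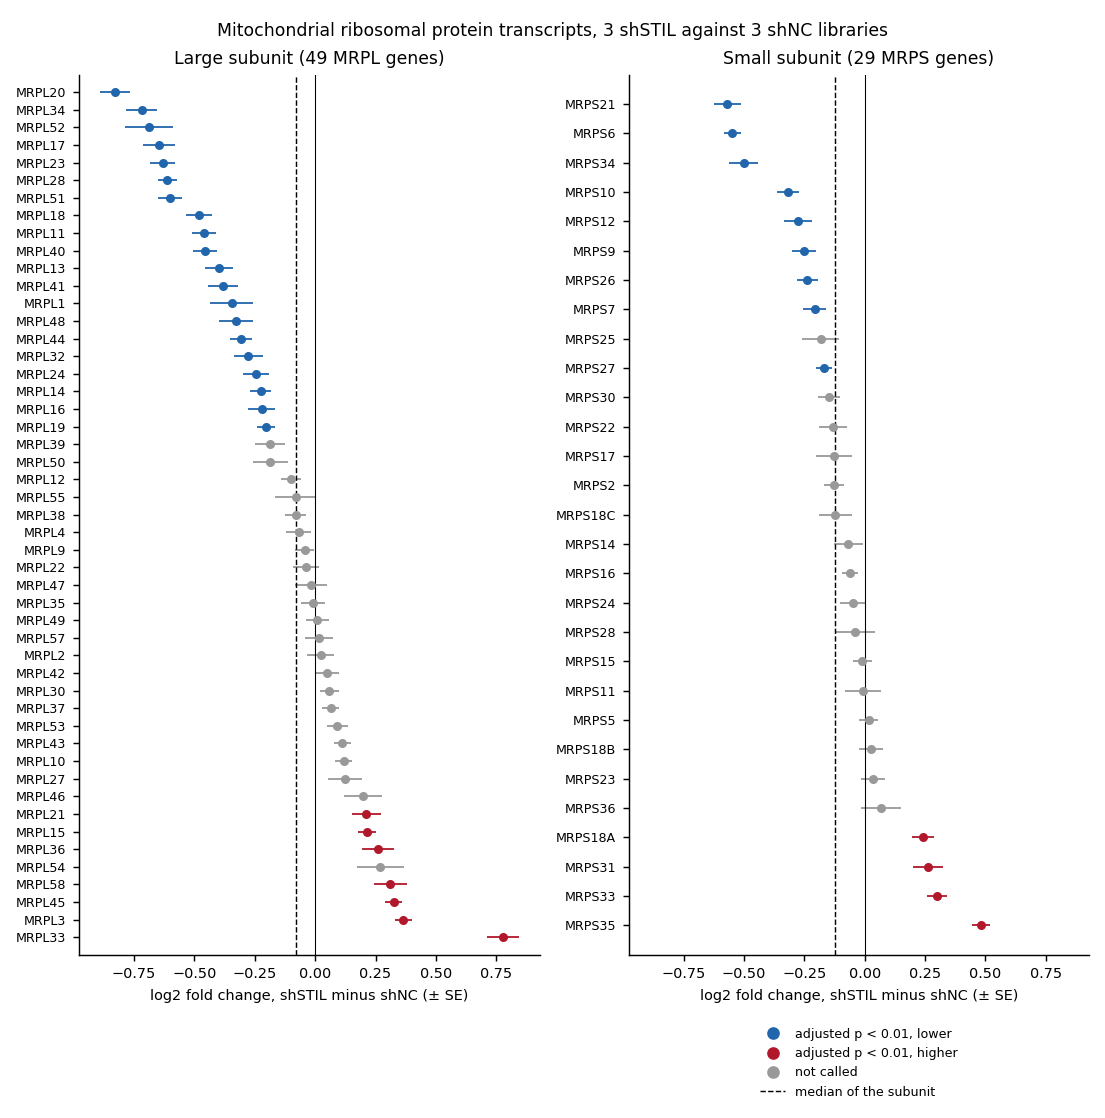
Log2 fold change (shSTIL minus shNC, ± SE) of each of the 49 MRPL and 29 MRPS genes in rank order, coloured by the call at an adjusted p under 0.01, with a dashed line at the median of the subunit. In the large subunit 20 genes were lower and 7 higher, and in the small subunit 9 were lower and 4 higher. Once length and GC trends were removed these counts were 16 and 17, and 7 and 5.

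Shares and medians did not order the subunits in the same way. Of the 49 MRPL genes 20 (40.8%) were lower and 7 (14.3%) higher, and of the 29 MRPS genes 9 (31.0%) were lower and 4 (13.8%) higher. The median, however, was lower in the small subunit, at -0.12 against -0.08 in the large subunit. The MRPL genes were more spread, with quartiles of -0.35 and 0.09 against -0.21 and 0.02. Of the MRPL genes 30 lay below 0, and of the MRPS genes 21. In the fit corrected for length and GC, the large subunit had 16 lower and 17 higher genes and a median of 0.04, and the small subunit had 7 lower, 5 higher and a median of -0.06. The difference of the medians, large minus small, was 0.04 on the deposited scale, and it was -0.002 without shNC replicate 2 and 0.10 with length and GC trends removed. No test was made over the members of a subunit, since they share the same 6 libraries.

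**Figure D2:**
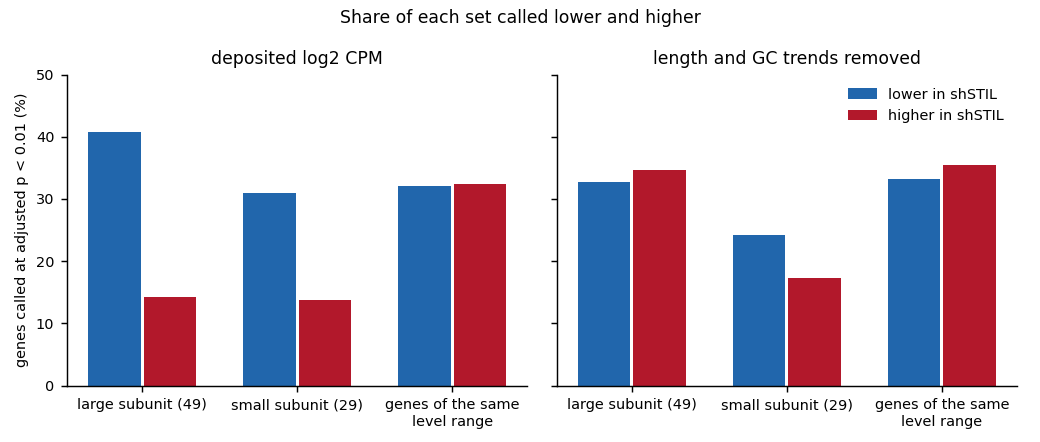
Percent of the large subunit (49 genes), the small subunit (29 genes) and genes of the same range of level that were called lower (blue) or higher (red) at an adjusted p under 0.01, on the deposited log2 CPM (left, 8485 genes in the range) and with length and GC trends removed (right, 8466 genes with a coding transcript). The excess of lower over higher genes in the large subunit, 40.8% against 14.3% on the left, is absent on the right.

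The summed transcripts of both subunits were slightly lower in shSTIL libraries, both as a share of reads and in CPM on the deposited scale. Reads of the 78 members made up 0.439%, 0.434% and 0.439% of the shNC libraries and 0.415%, 0.426% and 0.421% of the shSTIL libraries, and the groups did not overlap. These shares are without TMM scaling. The log2 CPM values, and so the summed CPM, carry TMM factors (library scaling). The factors were 0.981, 0.992 and 0.981 in shNC and 1.012, 1.019 and 1.015 in shSTIL libraries. Their part in the lower CPM was not tested. The summed CPM of the large subunit was 2730 ± 41 (SD, n = 3) in shNC and 2553 ± 30 in shSTIL libraries, and that of the small subunit was 1720 ± 18 and 1599 ± 19. The ratio of the subunit sums, large over small, was 1.59, 1.58 and 1.59 in shNC libraries and 1.60, 1.61 and 1.58 in shSTIL libraries. These ratios overlapped, so a shift of the MRPL total against the MRPS total was not seen at this replicate error. The totals go by symbol, so MRPS30, MRPS18A and MRPS36 count as small subunit. GADD45GIP1, DAP3, PTCD3, AURKAIP1 and CHCHD1 are left out, and totals by place in the ribosome were not compared. Per kilobase of coding transcript, the median shNC level was 38.2 CPM in the large subunit and 27.8 CPM in the small subunit, from 6.46 CPM for MRPS25 to 152 CPM for MRPL23.

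On the deposited scale, the deepest falls of the large subunit were in MRPL20, MRPL34, MRPL52, MRPL17 and MRPL23. MRPL20 (chromosome 1, 1401909 to 1407293), whose bacterial counterpart binds rRNA early in assembly, was at a log2 CPM of 5.57, 5.52 and 5.69 in shNC and 4.69, 4.87 and 4.73 in shSTIL libraries. Its log2 fold change was -0.83 ± 0.06 (SE, limma adjusted p = 8.3e-08), which is 56.3% of the control level. All 3 shSTIL libraries lay below all 3 shNC libraries, as they did for each fall named in this paragraph. MRPL34 (chromosome 19, 17292573 to 17306843), a small protein of bacterial type, was at 5.60, 5.38 and 5.39 against 4.79, 4.78 and 4.66 (log2 fold change -0.72 ± 0.07). MRPL52 (chromosome 14, 22829887 to 22835037), which is particular to mitochondria, was at 4.37, 4.26 and 4.55 against 3.53, 3.72 and 3.86 (-0.69 ± 0.10). MRPL52 had the largest standard error of all members, and its lowest shNC value was 4.26 against a highest shSTIL value of 3.86. MRPL17 (chromosome 11, 6680385 to 6683340) was at 5.47, 5.43 and 5.52 against 4.89, 4.66 and 4.92 (-0.65 ± 0.07). MRPL23 (chromosome 11, 1947332 to 2014944) was at 6.59, 6.47 and 6.57 against 5.83, 6.02 and 5.88 (-0.63 ± 0.05). Both proteins line the exit tunnel, and MRPL23 had the highest level per kilobase of all members. Corrected for length and GC, MRPL23 was at -0.39, and MRPL51 (-0.53), MRPL28 (-0.48) and MRPL18 (-0.40) lay below it. The other lower MRPL genes were MRPL28 (-0.61), MRPL51 (-0.60), MRPL18 (-0.48), MRPL11 (-0.46), MRPL40 (-0.46), MRPL13 (-0.40), MRPL41 (-0.38), MRPL1 (-0.35), MRPL48 (-0.33), MRPL44 (-0.31), MRPL32 (-0.28), MRPL24 (-0.25), MRPL14 (-0.23), MRPL16 (-0.22) and MRPL19 (-0.20). Of these, MRPL14, MRPL16, MRPL24 and MRPL41 were not called once length and GC trends were removed, and their log2 fold changes were then between -0.13 and -0.08.

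The largest rise of any member was in MRPL33. MRPL33 (chromosome 2, 27771719 to 27779733), a very small protein of bacterial type, was at a log2 CPM of 4.06, 3.94 and 4.11 in shNC and 4.76, 4.84 and 4.84 in shSTIL libraries. Its log2 fold change was 0.78 ± 0.07 (SE, limma adjusted p = 3.1e-07), which is 171% of the control level. Its coding transcript of 518 bases is the shortest of all members. MRPL3 (chromosome 3, 131462212 to 131502971), which reaches towards the peptidyl transferase centre, was at 7.02, 7.10 and 7.12 against 7.47, 7.41 and 7.46 (log2 fold change 0.36 ± 0.04). MRPL45 (chromosome 17, 38297168 to 38323211), which ties the exit tunnel to the inner membrane, was at 6.32, 6.38 and 6.34 against 6.65, 6.69 and 6.67 (0.32 ± 0.03). Both are abundant members, and their libraries lay close together within a group. MRPL58 (chromosome 17, 75012670 to 75021261), a peptidyl-tRNA hydrolase that became part of the large subunit, was at 4.11, 4.10 and 4.20 against 4.41, 4.53 and 4.41 (0.31 ± 0.07). MRPL36 (chromosome 5, 1798385 to 1801434), a small protein of bacterial type, was at 4.999, 4.87 and 4.85 against 5.05, 5.26 and 5.20 (0.26 ± 0.06). For MRPL36 the lowest shSTIL value was only just above the highest shNC value. Corrected for length and GC, MRPL36 was at 0.42. The other higher MRPL genes were MRPL15 (0.21) and MRPL21 (0.21).

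**Figure D3:**
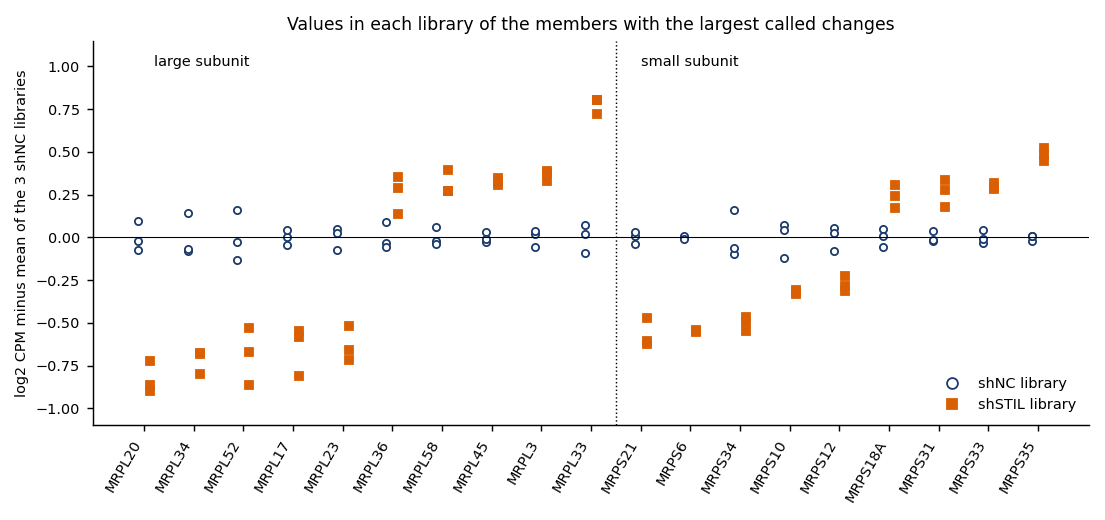
Log2 CPM in each of the 3 shNC (open circles) and 3 shSTIL libraries (orange squares), less the mean of the shNC libraries, for the members with the largest called falls and rises of each subunit. Squares and circles do not overlap for any of these genes, and MRPL20 (log2 fold change -0.83) and MRPL33 (0.78) mark the ends.

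Among MRPS genes, MRPS21, MRPS6 and MRPS34 had the largest falls on the deposited scale. MRPS21 (chromosome 1, 150293861 to 150308979), a protein of bacterial type, was at a log2 CPM of 5.20, 5.22 and 5.15 in shNC and 4.57, 4.72 and 4.58 in shSTIL libraries. Its log2 fold change was -0.57 ± 0.06 (SE, limma adjusted p = 1.6e-06), which is 67.5% of the control level. MRPS6 (chromosome 21, 34073578 to 34143030), also of bacterial type, was at 6.48, 6.49 and 6.47 against 5.94, 5.94 and 5.93 (log2 fold change -0.55 ± 0.04). Libraries of MRPS6 were the closest together of those named here. MRPS34 (chromosome 16, 1771895 to 1773134), particular to mitochondria, was at 6.46, 6.21 and 6.24 against 5.76, 5.81 and 5.84 (-0.50 ± 0.06), and corrected for length and GC it was at -0.29, no lower than MRPS10 at -0.30. MRPS10 (chromosome 6, 42206807 to 42217861) was at 6.996, 7.19 and 7.16 against 6.79, 6.78 and 6.81 (-0.32 ± 0.05). MRPS12 (chromosome 19, 38930944 to 38933168), the decoding centre protein whose bacterial counterpart is the site of streptomycin resistance, was at 4.95, 4.82 and 4.92 against 4.58, 4.67 and 4.61 (-0.28 ± 0.06). Corrected for length and GC trends, MRPS12 was at -0.14 and was not called (adjusted p = 0.034). MRPS9 (-0.25), MRPS26 (-0.24), MRPS7 (-0.21) and MRPS27 (-0.17) were also lower, and of these MRPS26 and MRPS7 were not called once those trends were removed.

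The 4 higher MRPS genes were MRPS35, MRPS33, MRPS31 and MRPS18A. MRPS35 (chromosome 12, 27710832 to 27756295) was at a log2 CPM of 5.70, 5.73 and 5.72 in shNC and 6.16, 6.19 and 6.24 in shSTIL libraries. Its log2 fold change was 0.48 ± 0.04 (SE, limma adjusted p = 2.1e-07), which is 140% of the control level. MRPS33 (chromosome 7, 141002610 to 141014952) was at 5.43, 5.45 and 5.50 against 5.75, 5.74 and 5.78 (log2 fold change 0.30 ± 0.04). MRPS35, MRPS33 and MRPS31 are particular to mitochondria, and MRPS18A is described with its paralogs. MRPS31 (chromosome 13, 40729128 to 40771190) was at 4.41, 4.46 and 4.41 against 4.60, 4.76 and 4.71 (0.26 ± 0.06).

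Of the 40 called members 22 were called in all 6 fits that left out 1 library, and none of the 40 changed sign. MRPL1, MRPL16, MRPL21, MRPL24 and MRPL36 were called in none of the 6. MRPL41 and MRPS7 kept the call only without shNC replicate 2, MRPL58 only without shNC replicate 3, MRPS31 only without shSTIL replicate 1, MRPS18A only without shSTIL replicate 2 and MRPS9 only without shSTIL replicate 3. MRPL52 kept it only without shNC replicate 2 or shSTIL replicate 3, MRPS10 only without shNC replicate 1 or 2, and MRPS12 only without shNC replicate 2 or shSTIL replicate 2. MRPS26 lost the call without shNC replicate 3, shSTIL replicate 1 or shSTIL replicate 2, MRPS27 without shNC replicate 2, shNC replicate 3 or shSTIL replicate 3, MRPL32 without shSTIL replicate 1 or 3, and MRPS34 without shSTIL replicate 1. The falls of MRPL20, MRPL34, MRPL17, MRPL23, MRPS21 and MRPS6 and the rises of MRPL33, MRPL3, MRPL45, MRPS35 and MRPS33 were called in each of the 6.

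Sorted by origin, no small subunit protein of bacterial type was called higher on the deposited scale. Of the 16 small subunit proteins with a bacterial counterpart, 6 were lower (37.5%) and 0 higher, and 15 lay below 0, with a median of -0.12. Lower genes made up 37.2% of all members and 32.2% of genes in their range of level, and higher genes 14.1% and 32.3%. Of the 16, 37.5% were thus called at all, against 51.3% of members and 64.5% of genes in that range. Of the 14 small subunit proteins particular to mitochondria, which include 4 with other symbols, 4 were lower and 4 higher, with a median of 0.03. The same correction left the first class with 4 lower and 1 higher gene and 11 below 0, so that this contrast was weaker, and the medians were -0.07 and -0.04. In the large subunit, 14 of 30 proteins of bacterial type were lower and 5 higher (median -0.09), and 7 of 22 particular to mitochondria were lower and 3 higher (median -0.04). These became 11 and 9, and 6 and 9, with medians of 0.00 and 0.05, once the trends were removed. Placing proteins by structure and not by symbol gave 52 large subunit proteins with 21 lower and 8 higher, and 30 small subunit proteins with 10 lower and 4 higher, with medians of -0.08 and -0.09.

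By place in the ribosome, 4 of 8 proteins of the exit tunnel, 3 of 6 of the central protuberance and 2 of 4 of the stalks were lower, against 37.2% of all members and 32.2% of genes in their range of level (groups of 4 to 8 proteins). Of 8 exit tunnel proteins, MRPL17, MRPL23, MRPL44 and MRPL24 were lower and MRPL45 was higher, whereas MRPL39 (-0.19), MRPL22 (-0.04) and MRPL47 (-0.02) were not called. Of 6 proteins of the central protuberance, where the tRNAs and both subunits meet, MRPL18, MRPL40 and MRPL48 were lower and MRPL55 (-0.08), MRPL38 (-0.08) and MRPL46 (0.20) were not called. MRPL18 (chromosome 6, 159789812 to 159798429) binds the structural RNA of the protuberance, and it left 71.6% of the control level. Among 4 stalk proteins, which recruit the translation GTPases, MRPL11 and MRPL1 were lower and MRPL12 (-0.10) and MRPL10 (0.12) were not called. Of 5 proteins near the peptidyl transferase centre, MRPL16 was lower, MRPL3 was higher, and MRPL4 (-0.07), MRPL2 (0.02) and MRPL27 (0.12) were not called. Of 5 proteins at the mRNA channel and decoding centre, MRPS12 and MRPS7 were lower and MRPS24 (-0.05), MRPS11 (-0.01) and MRPS5 (0.02) were not called. Corrected for these trends, the exit tunnel had 3 lower and 1 higher, the central protuberance 3 and 1, the stalks 2 and 2, the peptidyl transferase proteins 0 and 3, and the mRNA channel 0 and 0. In that fit MRPL22, MRPL47, MRPL55, MRPL38, MRPL12, MRPL4 and MRPS24 were above 0, and MRPL12 and MRPL4 (0.11 and 0.12) were called higher. MRPL24 and MRPL1 were called in 0 of the 6 fits that left out 1 library.

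Of the 3 paralogs of MRPS18, 1 was called. MRPS18A (chromosome 6, 43671202 to 43687791), which lies in the large subunit, was at a log2 CPM of 5.98, 5.88 and 5.94 in shNC and 6.24, 6.11 and 6.17 in shSTIL libraries (log2 fold change 0.24 ± 0.05, limma adjusted p = 0.0005), and at 0.39 corrected for length and GC. MRPS18B, a small subunit paralog, was at 6.20, 6.10 and 6.13 against 6.05, 6.22 and 6.24 (0.03 ± 0.05). MRPS18C, which takes the place of the bacterial protein, was at 5.03, 4.92 and 5.19 against 4.87, 4.94 and 4.96 (-0.12 ± 0.07). MRPS18B and MRPS18C overlapped between the groups and were not called. Differences between the paralogs were not tested. Of the MRPS18A transcript 604 bases also lie in RSPH9, and of the MRPS18C transcript 1296 bases lie in ABRAXAS1, each on the opposite strand.

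MRPS30 and MRPS36, whose symbols mislead, showed little change. MRPS30 (chromosome 5, 44808947 to 44815514), a large subunit protein, was at a log2 CPM of 5.55, 5.59 and 5.48 in shNC and 5.37, 5.39 and 5.43 in shSTIL libraries (log2 fold change -0.15 ± 0.05, limma adjusted p = 0.014). Its groups did not overlap, but it missed the threshold of 0.01. MRPS36 (chromosome 5, 69217760 to 69230158), the 2-oxoglutarate dehydrogenase component, was at 3.72, 3.72 and 3.87 against 3.89, 3.89 and 3.73 (0.07 ± 0.08).

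Of 7 subunits with other or changed symbols 2 were lower and 2 higher, MRPL58 among the latter. That is 57.1% called, against 64.5% of genes in the members' range of level and 47.1% of all genes. GADD45GIP1, a large subunit protein near the exit tunnel also called CRIF1, was at a log2 CPM of 6.89, 6.73 and 6.76 in shNC and 6.21, 6.34 and 6.29 in shSTIL libraries (log2 fold change -0.51 ± 0.05, limma adjusted p = 6.3e-07). AURKAIP1, a small subunit protein first named for its binding to the kinase AURKA, was at 6.52, 6.43 and 6.46 against 6.25, 6.11 and 6.19 (-0.29 ± 0.04), and it lost the call without shSTIL replicate 3. With length and GC trends removed AURKAIP1 was at -0.04 and was not called (adjusted p = 0.47). DAP3, the GTP-binding protein of the small subunit, was at 6.55, 6.56 and 6.62 against 6.94, 6.95 and 6.97 (0.37 ± 0.03). DAP3 was thus higher in every shSTIL library than in any shNC library, while CHCHD1, PTCD3 and MRPL57 overlapped between the groups. CHCHD1 was at 4.68, 4.65 and 4.52 against 4.67, 4.73 and 4.68 (0.08 ± 0.06). PTCD3, a pentatricopeptide repeat protein of the small subunit, was at 6.53, 6.62 and 6.59 against 6.61, 6.62 and 6.66 (0.05 ± 0.04). MRPL57 was at 5.60, 5.54 and 5.65 against 5.48, 5.72 and 5.64 (0.02 ± 0.06).

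Transcripts of these genes are short, and among all genes of their level the short ones were more often lower in shSTIL libraries. The part of length in the members' calls was measured only by the fit with length and GC trends removed. The median coding transcript of the members was 1379 bases, against 3249 bases for genes in their range of level. Among genes in the range, the share lower was 43.3% under 800 bases, 44.9% from 800 to 1200, 38.1% from 1200 to 2000, 33.3% from 2000 to 4000 and 26.1% from 4000 on, while the share higher went from 15.6% to 39.5%. Of 23 members from 800 to 1200 bases 12 were lower and 3 higher, and of 32 from 1200 to 2000 bases 14 were lower and 4 higher. The 9 shortest members, under 800 bases, did not go with the other short genes: 1 was lower (MRPL23) and 3 were higher (MRPL33, MRPL36 and MRPL21), with a median of 0.12 against -0.14 for genes of that length. Of 11 members from 2000 to 4000 bases 2 were lower, and of 3 longer members MRPS33 was higher. GC content moved with the call in the same way, with 41.2% of range genes lower and 21.7% higher at a GC content of 60% or more, and of 13 such members 6 were lower and 0 higher. MRPL genes had shorter transcripts than MRPS genes, with medians of 1199 and 1547 bases.

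**Figure D4:**
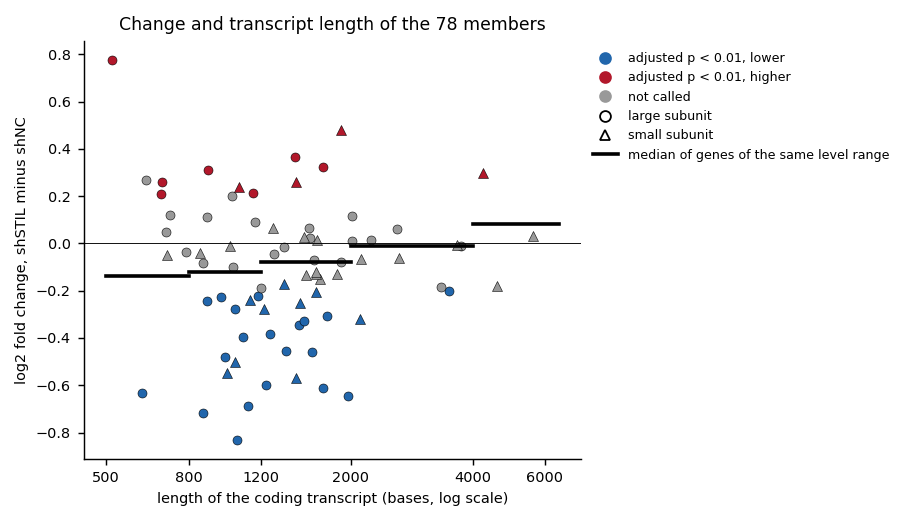
Log2 fold change (shSTIL minus shNC) of the 78 members against the length of their coding transcript in bases on a log scale, by subunit and call, with black bars for the median of all genes in the members' range of level in 5 length bins. The bars rise from -0.14 under 800 bases to 0.08 from 4000 bases on, and most members between 800 and 2000 bases lie below their bar while MRPL33, the shortest, lies far above it.

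Several members share sequence or a start region with a neighbour, which limits what their reads can tell. In the annotation 31 of the 78 members share exon bases with another gene, 17 of them with a gene in the expression tables. The sources used here do not state a stranded library, so reads of opposite overlapping genes cannot be told apart, and RSEM divides reads between similar transcripts. MRPL20 shares 293 bases with the pseudogene RN7SL657P and MRPS6 shares 176 with SLC5A3 on the same strand, and MRPL34 shares 223 with ABHD8 and MRPL23 shares 85 with MRPL23-AS1 on the opposite strand. The largest same-strand overlaps were in members not called on the deposited scale. MRPS24 shares 606 bases (85.7% of its transcript) with URGCP-MRPS24, a gene in the expression tables. MRPL46, MRPL12 and MRPS28 share 70.8%, 68.2% and 55.4% of theirs with genes outside those tables. Within 1000 bases of the start of 21 members lay the start of another measured gene on the opposite strand. For 8 of these 21 members both the member and its neighbour were called, and in 5 of these 8 pairs both were lower. Of single genes in the members' range of level 64.5% were called and 32.2% were lower, and pairs of other genes were not counted. The 5 pairs included MRPL18 with TCP1 (-0.46), a cytosolic chaperonin subunit, MRPS12 with SARS2 (-0.24), the mitochondrial seryl-tRNA synthetase, and MRPL51 with NCAPD2 (-0.61), a condensin subunit. The others were MRPL14 with TMEM63B (-0.16) and MRPL32 with PSMA2 (-1.45), a proteasome subunit. MRPL51 and NCAPD2 share 220 exon bases, and MRPL32 and PSMA2 share 24. In the other 3 pairs the member was lower and the neighbour higher: MRPS27 with PTCD2 (0.22), MRPS7 with GGA3 (0.19) and MRPL40 with HIRA (0.17). MRPL46 and MRPS11, which lie start to start 320 bases apart and are each other's neighbour among the 21, were at 0.20 and -0.01 and neither was called.

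Of 6 promoter words searched, some were more frequent among members than among other genes of their level and others less frequent. A RefSeq promoter was matched for 69 of the 78 members. The ETS word CCGGAAG was present in 29 of them (42.0%), against 22.5% of 7015 promoters of genes in the range of level and 10.7% of all 27305 promoters. It was in 12 of 27 lower, 6 of 9 higher and 11 of 33 members not called, and in 17 of 42 MRPL and 12 of 27 MRPS promoters. The YY1 word AAGATGGCG was in 13 members (18.8%), against 4.79% of the range and 1.85% of all promoters, and it was in 3 lower, 2 higher and 8 members not called. The NRF1 word GCGCANGCG was in 13 members (18.8%), against 17.1% and 8.05%, and in 5 lower, 3 higher and 5 not called. The E-box CACGTG, which MYC binds, was in 6 members (8.70%), against 10.7% and 7.43%, of which 0 were lower and 2 were higher. The CCAAT box (CCAAT) was in 20 members (28.99%), against 37.4% of the range and 35.7% of all promoters, and in 9 of 27 lower, 1 of 9 higher and 10 of 33 uncalled members, and among range genes 35.8% of those with it were lower against 29.7% of those without. The GC box GGGCGG was in 42 members (60.9%), against 73.0% of the range and 44.6% of all promoters, and in 21 lower, 6 higher and 15 uncalled members. Both strands were searched, different words were allowed to overlap, and a match is a description of letters and not of binding. Among range genes with the ETS word 29.6% were lower and 32.5% higher, close to the 32.7% and 32.5% of those without it.

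Of 9 nuclear regulators of these genes 6 were higher and 0 lower, or 66.7% called, against 64.5% called and 32.3% higher among genes in the members' range of level. GABPB1, the partner of GABPA, was at a log2 CPM of 4.67, 4.78 and 4.79 in shNC and 5.44, 5.42 and 5.40 in shSTIL libraries (log2 fold change 0.68 ± 0.05, limma adjusted p = 1.2e-07). GABPA was at 5.72, 5.79 and 5.73 against 5.98, 5.89 and 5.90 (0.18 ± 0.04), and it kept its call in 1 of the 6 fits that left out 1 library, that without shNC replicate 2. GABPA also lost it with length and GC trends removed (adjusted p = 0.017) and with a replicate block (adjusted p = 0.0115). YY1 was at 7.14, 7.16 and 7.14 against 7.53, 7.51 and 7.45 (0.35 ± 0.03). All 3 were higher in each shSTIL library than in any shNC library. MYC, an activator of cell growth and ribosome genes, was at 7.73, 7.63 and 7.69 against 8.38, 8.42 and 8.44 (0.73 ± 0.03). PPRC1, a coactivator of NRF1, was at 6.72, 6.59 and 6.67 against 7.26, 7.13 and 7.24 (0.55 ± 0.04). ESRRA was at 4.77, 4.62 and 4.64 against 5.01, 5.10 and 5.03 (0.37 ± 0.06). NRF1 itself, at 4.42, 4.40 and 4.43 against 4.36, 4.53 and 4.43 (0.02 ± 0.06), overlapped between the groups. The coactivators PPARGC1A and PPARGC1B were low, PPARGC1A with 2 to 6 reads per library (log2 fold change -0.36) and PPARGC1B with 38 to 77 reads (0.56, limma adjusted p = 0.011), and neither was called, although edgeR called PPARGC1B higher.

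The rest of mitochondrial translation moved in both directions, as did genes in general. Of genes in the members' range of level 32.2% were lower and 32.3% higher, and of all genes 23.6% and 23.5%. Of 25 assembly factors of the mitochondrial ribosome 3 were lower and 7 higher, with a median of -0.01. YBEY, an endoribonuclease of the small subunit, was at a log2 CPM of 3.14, 3.22 and 3.47 in shNC and 4.43, 4.46 and 4.44 in shSTIL libraries (log2 fold change 1.17 ± 0.09, limma adjusted p = 1.5e-07). MRM2, a methyltransferase of the large rRNA, was at 4.70, 4.65 and 4.60 against 4.20, 4.28 and 4.14 (-0.44 ± 0.06). Of 16 translation factors and mRNA-binding proteins 5 were lower and 7 higher, with a median of 0.07. MTRF1, a release factor, was at 3.10, 3.02 and 3.27 against 3.78, 3.58 and 3.74 (0.57 ± 0.10). It kept the call only without shNC replicate 3 or shSTIL replicate 2. SLIRP, which stabilises mitochondrial mRNA, was at 5.42, 5.31 and 5.54 against 4.97, 5.03 and 4.93 (-0.45 ± 0.06), and it lost the call without shSTIL replicate 3 and was at -0.27 corrected for length and GC. Of 20 genes of tRNA charging 8 were lower and 3 higher, with a median of -0.01. AARS2, the alanyl-tRNA synthetase, was at 5.43, 5.39 and 5.45 against 4.95, 4.87 and 4.99 (-0.49 ± 0.05). QRSL1, a subunit of the amidotransferase that makes glutaminyl-tRNA, was at 4.60, 4.64 and 4.63 against 5.38, 5.17 and 5.10 (0.59 ± 0.07). Of 5 genes of mitochondrial DNA transcription 1 was lower and 2 higher. TEFM, the elongation factor, was at 3.36, 3.29 and 3.23 against 2.83, 2.69 and 2.70 (-0.55 ± 0.10), and TFB2M, the initiation factor, was at 4.02, 3.81 and 3.96 against 4.38, 4.55 and 4.29 (0.48 ± 0.08). TFB2M kept the call only without shNC replicate 1. No one direction thus held over ribosome, assembly, translation and transcription genes, and none held over genes in that range. Assembly factors were called less often than all genes (47.1%), and translation, tRNA charging and transcription genes more often. Of these lists only the translation factors were called more often than genes in the range (64.5%). With length and GC trends removed these lists had 4 lower and 9 higher assembly factors, 5 and 7 translation factors, 7 and 6 tRNA charging genes, 1 and 3 transcription genes and 0 and 5 regulators.

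**Figure D5:**
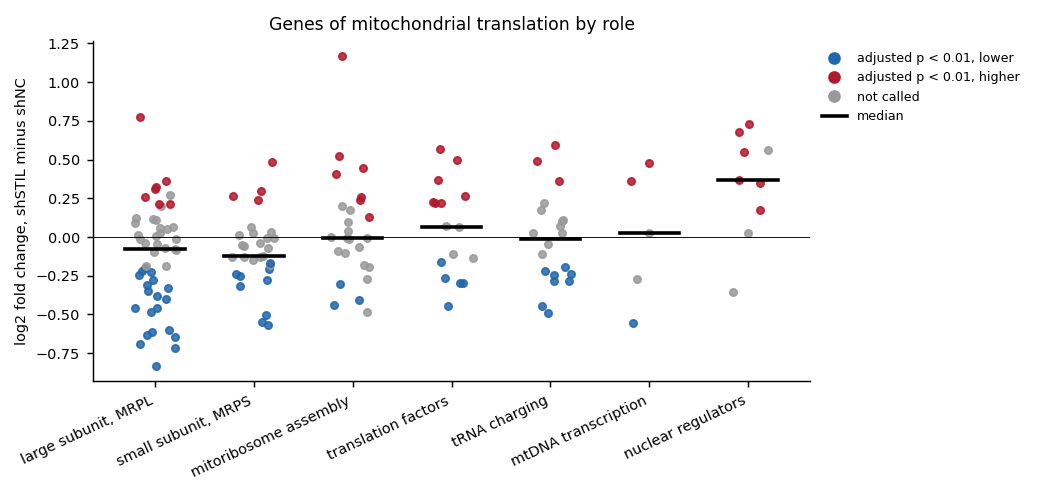
Log2 fold change (shSTIL minus shNC) of each gene of mitochondrial translation by role, coloured by the call at an adjusted p under 0.01, with the median as a black bar. Medians lie at -0.08 for MRPL and -0.12 for MRPS genes, near 0 for the lists of assembly, tRNA charging and transcription, and at 0.37 for the 9 regulators. With length and GC trends removed the MRPL median was 0.04.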

How the data were processed

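RNA-seq of 6 EJ libraries, 3 shNC and 3 shSTIL, was analysed. The authors sequenced total RNA on a BGISEQ-500, used SOAPnuke to filter reads, Bowtie2 to align them to transcript sequences and RSEM to estimate a count per gene, and the submitters' processing notes also name limma and hg38. The deposited tables hold log2 CPM of 15953 genes for all 6 libraries (the authors used edgeR), and estimated counts from RSEM for shNC replicate 1 and the 3 shSTIL libraries. Reads were recovered from the deposited log2 CPM (TMM factors and a prior count of 2 that understates changes of low genes). They differed from the deposited estimated counts by less than 0.0005 reads, and from 87.5% to 87.8% of the values were whole within 0.01, since RSEM splits reads. Depth limits the precision of every value, and replicate errors carry it.

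Groups were compared with limma 3.58.1 in R 4.3.3 (lmFit, eBayes with a mean-variance trend) on the log2 CPM as deposited, over every gene, with Benjamini-Hochberg adjustment over all of them and a threshold of 0.01. No gene was filtered out. Single genes also had an exact two-sided permutation test over 20 labellings. edgeR 4.0.16 and DESeq2 1.42.0, both on reads rounded to whole numbers, were alternatives, with no trend, quantile normalization, median centring, a minimum mean log2 CPM of 1, other thresholds, a replicate block and each library left out. A fit with lowess trends (span 0.3) on transcript length and GC content removed from each library was added after the data were seen. The main limma fit, the limma fit with a minimum level, edgeR and DESeq2 were tested on simulated data, and the other fits were not. On those data the limma fit without a minimum level recovered fewer of the changed genes than the fit with it.

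Lengths, GC content and overlaps are from GENCODE 29 (GRCh38), for the transcript with the longest coding sequence, and gene positions and promoters are from RefSeq (GRCh38.p14). Every member may be named. Values in each library are given for the 5 largest falls and rises per subunit among called members whose groups did not overlap and whose mean log2 CPM was 3 or more, for the MRPS18 paralogs, MRPS30, MRPS36 and subunits with other symbols, for the largest fall and rise of each other list and for every regulator. The members and lists were chosen with earlier results of these data known. KRT19, UPK3A, DCN, LUM, PTPRC and CD3E were also listed as markers. They were not found in the expression tables used here, so they were not analysed.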

Additional observations from a re-analysis of the deposited data

How the results depend on the processing

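On the deposited scale, edgeR called 41 members (30 lower, 11 higher) and shared all 40 calls of limma, and DESeq2 called 37 (27 lower, 10 higher), all of them shared. Quantile normalization gave medians of -0.0537 (large) and -0.0766 (small), a difference of 0.0229. Removing length and GC trends gave 22 higher members, 17 of them in the large subunit, with medians of 0.0442 and -0.0568, a difference of 0.101. Of the 40 calls 33 remained and 12 were added. Without the mean-variance trend 7 members were higher, 8 MRPS genes were called and 2 of them were higher. At an adjusted p under 0.05, 11 MRPL genes were higher. With an absolute log2 fold change above 1 added, 0 members were called in either subunit or direction. Sorting proteins by place in the ribosome moved the small subunit's median to -0.0943 and the difference to 0.0136. A rule for symbols that go on after the number and at most 1 letter removed no member.

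Leaving out 1 library at a time gave 24 to 31 called members, 17 to 25 lower and 6 to 8 higher. It gave 18 to 21 called MRPL genes, 14 to 17 lower and 4 to 6 higher, and 5 to 10 called MRPS genes, 3 to 8 lower and 2 to 3 higher. The medians ranged from -0.119 to -0.0523 in the large and from -0.117 to -0.0759 in the small subunit, and their difference from -0.0022 to 0.0397. Of the 38 members not called, 10 changed sign in at least 1 of these fits. With length and GC trends removed 12 members changed sign, none of them called before and 3 of them (MRPL4, MRPL12 and MRPS15) then called higher. Among genes whose values are given in each library, those that changed sign were MRPL57 (-0.0389 to 0.0826 with 1 library left out, below 0 without shNC replicate 2 or shSTIL replicate 2), NRF1 (-0.0224 to 0.0643, below 0 without shSTIL replicate 2), MRPS18B (-0.0079 to 0.0832, below 0 without shSTIL replicate 3), and PTCD3 (-0.061) and NRF1 (-0.0029) with length and GC trends removed.

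Libraries share a replicate number, but the deviations of same-numbered libraries correlated at r = -0.12, -0.06 and -0.11, so the numbers were not taken as pairs. A fit with a replicate block called 37 members (28 lower, 9 higher), 25 in the large and 12 in the small subunit, and MRPL36 and GABPA lost their calls. The causes of these shifts were not tested.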
